A study of Mus musculus with 4 samples.

Results

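The genes described here are 10 mouse genes of the integrated stress response and the unfolded protein response: Atf4, Ddit3, Trib3, Asns, Chac1, Hspa5, Xbp1, Herpud1, Atf5 and Ppp1r15a. They were taken by gene symbol from a table of 22667 genes, and all 10 were among the 12497 genes with at least 75 reads over the 4 libraries, which were the genes compared. The cells were N2a, a neuroblastoma line from the mouse. They received a non-targeting siRNA (siControl) or an siRNA against Arglu1 (siArglu1), an arginine- and glutamate-rich protein, for 48 h, followed by 4 h of either ethanol as the vehicle (Veh) or dexamethasone at 100 nM (Dex), which activates the glucocorticoid receptor. Each siRNA was thus combined with each treatment, in 4 groups. RNA of 3 cultures was pooled in each group, so that there is 1 library per group and the spread between cultures was not measured. No test was made between libraries of a pair, and the intervals given below cover counting error only.

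In the integrated stress response, kinases that sense amino acid shortage, viral RNA, heme lack or stress of the endoplasmic reticulum (ER) phosphorylate the initiation factor eIF2. General translation then drops, while the mRNA of the transcription factor ATF4 is translated more and ATF4 switches on genes of amino acid supply and feedback. The unfolded protein response is run by the ER sensors PERK, IRE1 and ATF6, of which PERK is itself an eIF2 kinase, IRE1 splices the Xbp1 mRNA, and ATF6 is cut to a transcription factor that raises ER chaperones. The siArglu1 libraries ask what lower Arglu1 does to these mRNAs, and the Dex libraries what activation of the glucocorticoid receptor does.

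Reads on genes came to between 66074574 and 86541444 per library. Arglu1 itself was at 26.4% of the siControl level in vehicle and at 22.5% in Dex. Of the markers of sympathetic neuronal identity, 12 were at a cRPKM of at least 1 in all libraries, while Nefm and Nefl were at or near 0, and of 15 markers of immune, epithelial, endothelial, glial and stromal cells none was. The summed cRPKM of the neuronal markers was 1656 and 1660 in siControl Veh and Dex and 2210 and 2159 after siArglu1, and that of the other markers was 3.89 and 3.4, and 2.94 and 2.87. The neuronal markers did not move together, since Gata2 was lower after siArglu1 (79.4 and 74.2 cRPKM against 30.6 and 30.8), as was Th compared at the same treatment (2.58 and 4.71 against 1.05 and 2.54). The part of these shifts in the ratios below was not tested, and in bulk RNA fewer cells of a kind and less RNA per cell cannot be told apart.

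Binding motifs of the factors of both responses were searched on both strands in the RefSeq promoters of GRCm38.p6, which run from 250 bases before to 50 bases after each start. All 10 genes had a promoter there. The core of the C/EBP-ATF response element, TGATGNAA, to which ATF4 binds with a C/EBP partner, was found in the promoters of 4 of the genes (Asns, Chac1, Herpud1 and Trib3), and in 3.97% of all 32851 promoters. The ER stress element was searched only as CCAAT and CCACG set apart by 9 bases. In this form it was found for Hspa5 only, and in 0.119% of all promoters. Other forms and spacings of these parts were not searched, such as attgggccacg in the Herpud1 stretch below, where attgg is CCAAT on the other strand. The core TGACGTG of the UPR element was also found for Hspa5 only among the 10, and in 2.01% of all promoters. No glucocorticoid response element (its 2 half-sites GNACA and TGTNC with 3 bases between) lay in a promoter of the 10, against 0.475% of all. The match in Trib3 lay at base 15 after the start. The counts for the 10 are of genes, while the shares over all are of single promoters, so the units differ. The 10 were also chosen as known genes of these responses. These matches are letters in a window and not measured binding, and these motifs may overlap other motifs not searched. The stretches are given below because Herpud1 had the lowest ratio of siArglu1 to siControl among the 10, and the others stand for the responses it belongs to. Capitals mark the motif, and for Chac1 and Herpud1, where it lies on the other strand, its reverse complement.
Herpud1, chr8:94386179-94386428, plus strand, ending at the base before the start: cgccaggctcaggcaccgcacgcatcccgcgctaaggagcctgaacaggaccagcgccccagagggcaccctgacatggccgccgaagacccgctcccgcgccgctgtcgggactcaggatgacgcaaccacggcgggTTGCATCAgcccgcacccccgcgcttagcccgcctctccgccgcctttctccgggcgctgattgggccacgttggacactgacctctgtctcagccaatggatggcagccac
Chac1, chr2:119350992-119351228, plus strand: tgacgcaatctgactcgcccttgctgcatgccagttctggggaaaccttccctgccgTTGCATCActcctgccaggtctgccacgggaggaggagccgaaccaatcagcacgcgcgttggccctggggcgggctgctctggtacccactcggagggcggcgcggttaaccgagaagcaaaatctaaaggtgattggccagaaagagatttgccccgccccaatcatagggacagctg
Asns, chr6:7693214-7693243, minus strand: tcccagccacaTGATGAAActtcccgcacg
Hspa5 ER stress element, chr2:34772020-34772049, plus strand: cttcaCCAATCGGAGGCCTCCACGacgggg
Hspa5 UPR element core, chr2:34771922-34771951, plus strand: gggcgtagcaaTGACGTGagttgcggagga

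Levels are given as cRPKM, the authors' read density per mappable kilobase at a common library size, which allows genes to be set side by side. The 10 genes fell into 3 abundant and 7 moderately abundant mRNAs. Atf4, Asns and Hspa5 stood at the 98.0 percentile or above of the genes tested in every library, and Ppp1r15a, the lowest, between the 72.9 and 75.8 percentile. Every one of the genes had at least 3317 reads in each library.

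**Figure D1:**
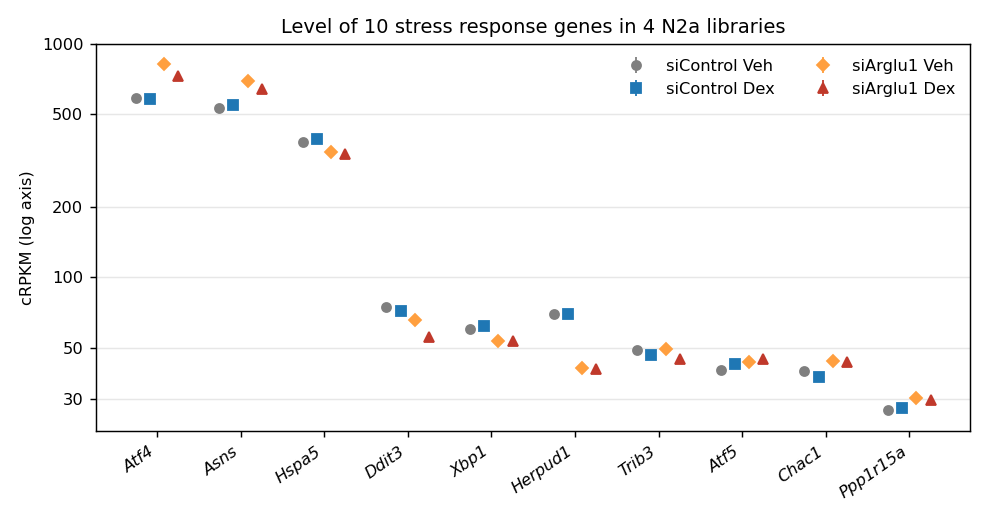
The level of the 10 genes in the 4 libraries as cRPKM on a log axis, ordered by mean level, with 95% Poisson counting intervals that are mostly smaller than the symbols. The siArglu1 libraries lie above the siControl libraries for Atf4 and Asns and below them for Herpud1, Hspa5, Xbp1 and Ddit3.

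Atf4 encodes the transcription factor at the centre of the integrated stress response. Its level was 585 cRPKM in siControl Veh and 579 in siControl Dex, against 819 in siArglu1 Veh and 732 in siArglu1 Dex. Both siArglu1 libraries were thus above both siControl libraries. The log2 ratio of siArglu1 to siControl, from TMM-scaled CPM, was 0.52 (95% interval 0.50 to 0.53) in the vehicle pair and 0.33 (0.32 to 0.35) in the Dex pair.

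Asns makes asparagine from aspartate and is a classic target of ATF4. It had 529 and 549 cRPKM in siControl Veh and Dex, against 696 and 644 in siArglu1 Veh and Dex, and again both siArglu1 libraries were the higher ones. Its log2 ratio was 0.43 in vehicle and 0.22 in Dex. Chac1, which degrades glutathione, had 39.7 and 37.5 cRPKM in siControl Veh and Dex, and 43.7 and 43.5 in siArglu1 Veh and Dex. Its log2 ratios of 0.17 (0.11 to 0.23) and 0.21 (0.15 to 0.27) were the only ones of the 10 genes that were not lower in Dex than in vehicle. Trib3, a pseudokinase that binds ATF4 and restrains it, stood at 49.0 and 46.4 cRPKM in siControl Veh and Dex and at 49.4 and 44.5 in siArglu1 Veh and Dex. The siControl and siArglu1 levels of Trib3 overlapped. Its log2 ratio was 0.04 (-0.01 to 0.09) in vehicle and -0.07 (-0.12 to -0.02) in Dex.

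Ppp1r15a encodes GADD34, which brings a phosphatase to eIF2 and so ends the response. It was at 27.0 and 27.5 cRPKM in siControl Veh and Dex, and at 30.4 and 29.9 in siArglu1 Veh and Dex, with log2 ratios of 0.21 (0.14 to 0.28) and 0.11 (0.05 to 0.17). Atf5, a relative of ATF4 that is under the same translational control, had 39.9 and 42.5 cRPKM in siControl Veh and Dex and 43.2 and 44.6 in siArglu1 Veh and Dex. Its log2 ratios were 0.15 and 0.06. For both genes the siArglu1 libraries were above the siControl libraries with ratios inside the middle 50% of all genes tested.

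Ddit3 encodes CHOP, a transcription factor tied to cell death in lasting stress and a further target of ATF4. Unlike Atf4 it was lower in the siArglu1 libraries. It had 74.5 and 72.1 cRPKM in siControl Veh and Dex, against 65.5 and 55.7 in siArglu1 Veh and Dex. The log2 ratio was -0.15 (-0.22 to -0.09) in vehicle and -0.38 (-0.44 to -0.32) in Dex. Ddit3 is also the shortest of the 10 genes, with a mappable length at the 6.89 percentile of the genes tested.

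Herpud1 was the gene with the largest ratio. It encodes an ER membrane protein that takes part in ER-associated degradation and is raised by both responses. Its level was 69.6 cRPKM in siControl Veh and 69.8 in siControl Dex, but 41.1 after siArglu1 with vehicle and 40.4 after siArglu1 with Dex. These rest on 8749 and 9454 reads in siControl and 5207 and 6661 in siArglu1, which set the counting interval of the first level at 68.1 to 71.1 and of the last at 39.5 to 41.4 cRPKM. The libraries of each siRNA were close to each other and the siRNAs lay far apart. siArglu1 cells held 60.4% (58.4 to 62.6) of the siControl level in vehicle and 57.7% (55.9 to 59.5) in Dex, which is a log2 ratio of -0.73 and of -0.79. Of all genes tested, 10.7% had such a ratio or a lower one in vehicle, and 6.21% in Dex.

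Hspa5 encodes BiP, the main chaperone of the ER lumen, which holds the sensors inactive. Its level was 381 and 393 cRPKM in siControl Veh and Dex, and 345 and 337 in siArglu1 Veh and Dex, with log2 ratios of -0.11 (-0.13 to -0.09) and -0.23 (-0.25 to -0.22). Xbp1, whose mRNA IRE1 splices into the form for an active transcription factor, had 60.1 and 62.0 cRPKM in siControl Veh and Dex and 53.6 in both siArglu1 libraries. Its log2 ratios were -0.13 and -0.22. For Hspa5 and Xbp1, as for Herpud1 and Ddit3, both siArglu1 libraries were below both siControl libraries. The share of all genes whose siRNAs separate in this way, in either direction, was not counted. Such separation is therefore not a result about these genes, nor about Atf4, Asns, Atf5 and Ppp1r15a above. Over all genes tested, the counting interval of the knockdown ratio excluded no change for 80.0% in vehicle and 78.6% in Dex.

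**Figure D2:**
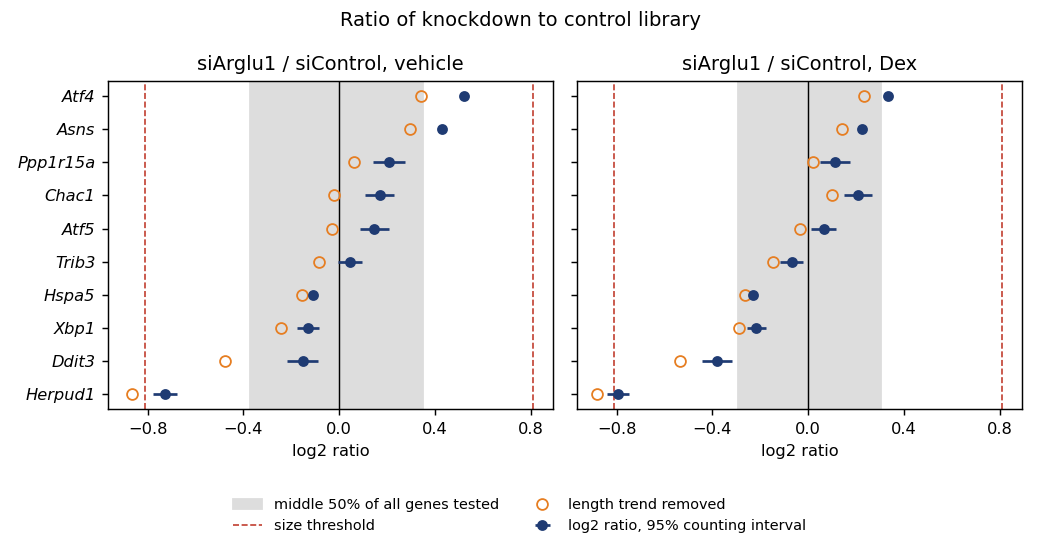
The log2 ratio of siArglu1 to siControl for the 10 genes in vehicle and in Dex (filled, with 95% counting intervals), with the ratio after removal of the length trend (open), the middle 50% of all genes tested (grey) and the size threshold of 0.81 (dashed). Herpud1 lies nearest to the threshold and passes it only with the length trend removed.

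By size, none of the 10 genes passed a log2 ratio of 0.81 in either direction, neither in vehicle, where 15.8% of all genes tested did, nor in Dex, where 12.1% did. The median of the 10 was 0.10 in vehicle and -0.002 in Dex (-0.06 and -0.09 with the length trend, described next, removed), beside 0.004 and 0.003 over all genes tested. The ratios of all genes fell with mappable length (Spearman rho -0.40 across genes in vehicle and -0.23 in Dex), and the 10 genes lie between the 6.89 and 44.9 percentile of length. With this trend removed, Herpud1 was at -0.87 and -0.88 and passed 0.81 in both pairs, Atf4 was at 0.34 and 0.23, Ddit3 at -0.48 and -0.54, and Asns at 0.30 and 0.14. Chac1 was then at -0.02 in vehicle and 0.10 in Dex, Trib3 at -0.08 and -0.15, and Atf5 at -0.03 in both, so that the positive ratios of Chac1, Trib3 and Atf5 in vehicle, and of Atf5 in Dex, turned negative.

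An additive model of knockdown and Dex over the 4 libraries (edgeR's quasi-likelihood test, Benjamini-Hochberg adjustment) treats the vehicle and Dex pairs as repeats of the knockdown. It called 5 of the 10 genes, beside 61.6% of all genes tested. Herpud1 fell by 0.76 on the log2 scale (edgeR adjusted p = 2.1e-17) and Ddit3 by 0.27 (edgeR adjusted p = 0.0046). Atf4 was higher by 0.43 (edgeR adjusted p = 2.2e-05), Asns by 0.33 (edgeR adjusted p = 0.0014) and Chac1 by 0.19 (edgeR adjusted p = 0.048). The model has 1 residual degree of freedom, and 5 of 10 is a share below its share over all genes. It leaves the length trend in, and with that trend removed Chac1 was at -0.02 in vehicle and 0.10 in Dex. The p-values do not measure the spread between cultures.

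The ratio of siArglu1 to siControl was lower in Dex than in vehicle for 9 of the 10 genes. How many of all genes went the same way was not counted, so this count is not a result about the 10 genes. The length trend differed between the pairs, and the 10 genes lie at or below the 44.9 percentile of length. The difference, Dex minus vehicle, was -0.23 (-0.32 to -0.14) for Ddit3, -0.21 (-0.22 to -0.19) for Asns and -0.19 (-0.21 to -0.17) for Atf4, and between -0.12 and 0.04 for the other 7. With the length trend removed it was -0.06 for Ddit3, -0.16 for Asns and -0.11 for Atf4. There is 1 library in each group, and these differences were not tested. They rest on the same 4 libraries as the Dex ratios given next, and are not a separate result from them.

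Dex went with small ratios in all 10 genes. In siControl cells the log2 ratio of Dex to vehicle ran from -0.08 for Chac1 to 0.10 for Atf5, and none of the 10 passed a log2 ratio of 1, beside 0.464% of all genes tested. In siArglu1 cells it ran from -0.27 for Ddit3 to 0.01 for Atf5, and none passed 1, beside 0.392% of all genes. Of the 10 genes, 9 were below 0 there, but the share of all genes below 0 was not counted. The median of the 10 was -0.06 (-0.02 with the length trend removed), beside -0.0008 over all genes tested. The lowest after Ddit3 were Atf4 at -0.19 (-0.21 to -0.18), Trib3 at -0.18 (-0.23 to -0.13) and Asns at -0.14 (-0.16 to -0.13). In this pair the ratios of all genes rose with length (Spearman rho 0.54 across genes). With that trend removed, Ddit3 was at -0.10, Atf4 at -0.11, Trib3 at -0.12 and Asns at -0.08, while Chac1, Xbp1, Herpud1 and Ppp1r15a turned from below to above 0. The additive edgeR model called none of the 10 for Dex (edgeR adjusted p = 0.999 for each), beside 1.04% of all genes, and 0 of the 10 had an unadjusted p under 0.05.

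**Figure D3:**
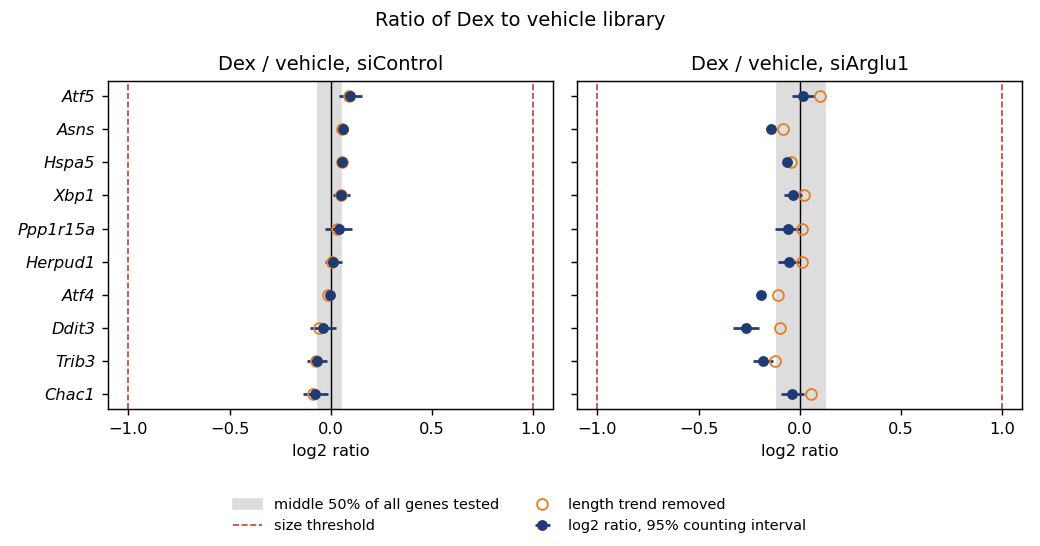
The log2 ratio of Dex to vehicle for the 10 genes in siControl and in siArglu1 cells, drawn as in the plot of the knockdown ratios, with the size threshold at 1. All points lie between -0.27 and 0.10, far inside the threshold.

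Some of the reads could belong to neighbours. In GENCODE M21, Ddit3 (chr10:127290774-127296288, plus strand) overlaps Mars and a predicted gene on the minus strand, Atf5 (chr7:44812256-44816658, minus strand) overlaps Nup62 and Il4i1 on the plus strand, Ppp1r15a overlaps Tulp2, and Herpud1 (chr8:94386438-94395377, plus strand) overlaps a predicted antisense gene. Ddit3 also overlaps another protein-coding entry of that name on its own strand, the upstream reading frame described below. Without strand, reads of genes on opposite strands cannot be told apart. Strand would not tell apart the reads of these Ddit3 entries. Mars was at 130 cRPKM in both siControl libraries and at 139 and 142 in siArglu1 Veh and Dex, and Nup62 at 64.0 and 62.7 in siControl Veh and Dex and at 66.3 and 67.8 in siArglu1 Veh and Dex. Mars was thus slightly higher in the siArglu1 libraries, where Ddit3 was lower, and Nup62 was slightly higher, as was Atf5. The part of the neighbours in these values was not tested. Tulp2 and Il4i1 were at 1.17 cRPKM or less in every library.

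Other genes were taken as 10 lists, all of the pathways except 1 list of cytosolic heat shock genes, and 148 genes of these lists were tested. Past 0.81 in siArglu1 against siControl were 7 lower and 0 higher in vehicle (4.73%, beside the 15.8% of all genes), and 5 lower and 1 higher in Dex (4.05%, beside 12.1%). The median over the 148 genes was 0.03 in vehicle and -0.02 in Dex. None passed 1 for Dex in either cell state.

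Upstream of ATF4, the list of eIF2 kinases, eIF2, eIF2B and phosphatase had 2 of 17 genes past the threshold, both lower. Eif2ak3 encodes PERK, the eIF2 kinase of the ER. It was at 16.11 and 16.04 cRPKM in siControl Veh and Dex and at 6.64 and 7.32 in siArglu1 Veh and Dex, with log2 ratios of -1.25 (-1.32 to -1.17) and -1.14 (-1.21 to -1.07). Dnajc3, the ER co-chaperone P58IPK, which also inhibits eIF2 kinases, went from 14.8 and 14.7 cRPKM to 8.18 and 7.86, with log2 ratios of -0.82 and -0.91. With the length trend removed Eif2ak3 was at -1.05 in both pairs, and Dnajc3 at -0.56 and -0.78, inside the threshold. In the other direction, Eif2b2, a subunit of the exchange factor eIF2B, had log2 ratios of 0.73 and 0.65. Eif2s1, the subunit of eIF2 that is phosphorylated, had 0.18 and 0.08.

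Among 16 tested partners and feedback genes of ATF4, none passed. The highest were Nupr1, a stress-induced chromatin protein, at 0.77 and 0.57, and Atf2, a bZIP factor, at 0.63 and 0.61. With the length trend removed Nupr1 was at 0.43 and 0.41, and Atf2 at 0.80 and 0.69. The lowest were Ddit4, an inhibitor of mTORC1 signalling, at -0.76 and -0.74 (-0.94 and -0.84, past 0.81, with the length trend removed), and Gdf15, a secreted stress cytokine, at -0.50 and -0.68. Of these 4, Ddit4 had the largest Dex ratio in siControl, 0.34 (0.31 to 0.37) in siControl and 0.36 (0.32 to 0.40) in siArglu1. Its level was 158 and 198 cRPKM in siControl Veh and Dex, and 90.9 and 119 in siArglu1 Veh and Dex, so that Dex and siArglu1 pointed in opposite directions for it.

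Without removal of the length trend, the metabolic targets of ATF4 had no gene past 0.81, among 18 of amino acid synthesis and one-carbon metabolism, 11 amino acid transporters and 13 aminoacyl tRNA synthetases and related genes. In synthesis, Pycr1, of proline synthesis, had 0.57 and 0.61 and Shmt2, of mitochondrial one-carbon metabolism, 0.48 and 0.50, while Aldh1l2 had -0.49 and -0.33 and Bcat1 -0.35 and -0.38. With the length trend removed Aldh1l2 was at -0.16 and -0.17, and Bcat1 at 0.08 and -0.17, with the other sign in vehicle. Among the transporters, Slc7a11, the cystine carrier, had 0.50 and 0.59, and 0.99 and 0.83, past the threshold, with the length trend removed. Slc7a5, the leucine carrier, had 0.43 and 0.49, while the glutamine carriers Slc38a1 and Slc38a2 had -0.55 and -0.43, and -0.54 and -0.48 (-0.14 and -0.23, and -0.33 and -0.38, with the trend removed). Of the tRNA genes, Wars had 0.22 and 0.30, Yars 0.20 and 0.14, Cars -0.38 and -0.47 and Xpot, a tRNA exporter, -0.72 and -0.75. With the trend removed Wars was at 0.05 and 0.21, Yars at 0.20 and 0.14, Cars at -0.33 and -0.45, and Xpot at -0.39 and -0.59. The medians of these 3 lists lay between -0.15 and 0.10 without removal of the trend.

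Of 11 ER stress sensors and their proteases, 1 was lower in both pairs and 1 higher in Dex. Creb3l2, an ER-bound transcription factor cut in the manner of ATF6, had 9.81 and 13.4 cRPKM in siControl Veh and Dex and 4.62 and 6.48 in siArglu1 Veh and Dex. Its log2 ratios were -1.05 in both pairs, and -0.66 and -0.86 with the length trend removed. It was higher with Dex by 0.46 in either cell state. Wfs1, an ER membrane protein, had log2 ratios of 0.75 and 0.93, and of 0.84 and 0.96 with the trend removed. Ern1, which encodes IRE1 alpha, had -0.57 and -0.39 (-0.19 and -0.20 with the trend removed). Traf2, its adaptor, had 0.23 and 0.12 (0.25 and 0.13).

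The ER chaperones and folding enzymes had 2 of 24 genes past the threshold, the same 2 in both pairs. Dnajc10, the disulfide reductase ERdj5, which works with BiP, was at 16.8 and 15.4 cRPKM in siControl Veh and Dex and at 6.16 and 6.51 in siArglu1 Veh and Dex, with log2 ratios of -1.41 and -1.25. Cnpy2, an ER-resident saposin-like protein, was at 69.0 and 68.0 cRPKM in siControl and at 24.9 and 21.4 in siArglu1, with log2 ratios of -1.44 and -1.67. The oxidoreductases Pdia3 and Ero1l had 0.49 and 0.36, and 0.47 and 0.32. These were named as the 2 lowest and 2 highest of the list, so that the values of Hspa5, -0.11 and -0.23, lying between them is no result.

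In ER-associated degradation, the pathway of Herpud1, 2 of 20 genes were past 0.81 in vehicle and none in Dex. Edem3, which trims mannose from misfolded glycoproteins, had -0.98 and -0.70, and -0.62 and -0.52, inside the threshold, with the length trend removed. Herpud2, the paralog of Herpud1, had 10.4 and 9.84 cRPKM in siControl Veh and Dex and 5.76 and 5.69 in siArglu1 Veh and Dex. Its log2 ratios of -0.82 (-0.93 to -0.71) and -0.80 (-0.90 to -0.70) stood beside -0.73 and -0.79 for Herpud1, and with the trend removed were -0.83 and -0.81, past the threshold in both pairs. Derl2, a subunit of the retrotranslocation complex, had 0.77 and 0.57 (0.87 and 0.61 with the trend removed), and Ube2j1, an ER ubiquitin-conjugating enzyme, 0.55 and 0.49.

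Of 7 tested cell death genes downstream of CHOP none passed. Bax, an effector of apoptosis, had 0.53 and 0.40, Bcl2 0.07 and 0.25, Bbc3 -0.17 and -0.29, and Bid -0.57 and -0.64. With the length trend removed Bcl2 was at 0.47 and 0.45 and Bax at 0.20 and 0.24. Of 11 tested cytosolic heat shock genes, a response separate from that of the ER, none passed either. Hsf1, their transcription factor, had 0.36 and 0.33, Dnaja1 0.19 and 0.04, Hsph1 -0.28 and -0.18, and Hspa4l -0.36 and -0.23. Hspa4l turned to 0.15 and 0.03 with the trend removed. With the length trend removed, 3 genes of the 10 lists were past 0.81 upward and 5 downward in vehicle, and 2 upward and 6 downward in Dex, with Eif2ak3, Dnajc10 and Cnpy2 among those lower in both.

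**Figure D4:**
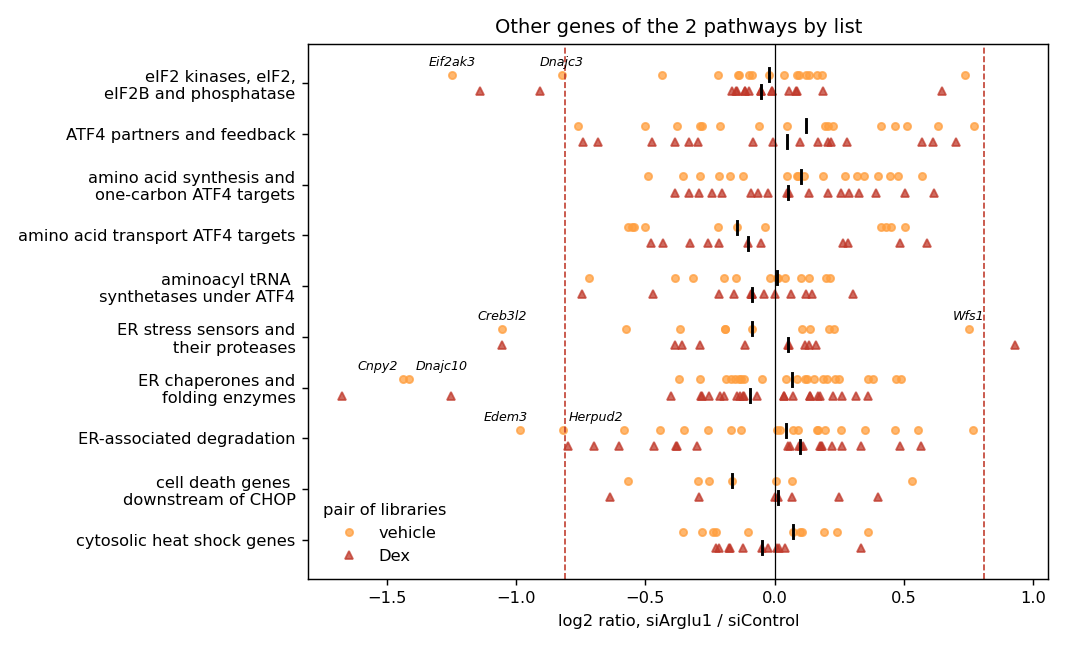
Log2 ratio of siArglu1 to siControl for the 148 tested genes of the 10 lists in vehicle (circles) and Dex (triangles), with list medians (black bars) and the threshold of 0.81 (dashed). Genes past it in at least 1 pair are named at their vehicle value, and 7 of these 8 lie on the low side.

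The splicing tables held 26 events in 8 of the 10 genes and none in Atf4 or Atf5. Of these, 25 could be compared, 10 of cassette exons, 9 of alternative 3′ and 6 of alternative 5′ splice sites, all with the best coverage score (SOK) in the 4 libraries, which stands for at least 100 junction reads in the tables that list them. Exon inclusion, or the use of a site, is given as PSI, a percent of 0 to 100. None of the 25 events differed by 15 PSI in any comparison, where over 57183 events of all genes 1.96% did for knockdown in vehicle, 1.52% for knockdown in Dex, 0.717% for Dex in siControl and 0.948% for Dex in siArglu1. In 22 of the 25 the PSI stayed within 3 in all comparisons.

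The event of Ddit3 that moved the most is its second exon, of 48 bases (mm9 chr10:126730768-126730815). Its PSI was 89.9 in siControl Veh and 89.7 in siControl Dex, and 82.3 in siArglu1 Veh and 83.1 with Dex. The libraries of each siRNA lay within 1 PSI of each other, and siArglu1 minus siControl came to -7.62 PSI in vehicle and -6.54 in Dex. Of all events, 6.93% differed at least as far in vehicle and 7.51% in Dex. In GENCODE M21 this exon is exon 2 of 4 of the main Ddit3 transcript and lies wholly in its 5′ UTR. It also holds the last 39 coding bases of an upstream reading frame of 34 codons, which M21 lists under a gene entry of its own. The upstream frame of CHOP is known to hold back its translation. The next exon of Ddit3, of 158 bases, had a PSI between 98.9 and 99.7.

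Xbp1 has an event at the segment that IRE1 cuts out. A unit of 43 bases (mm9 chr11:5424242-5424284) begins exon 4, and the downstream acceptor paired with it in the table lies 26 bases further on. The 26 bases between (mm9 chr11:5424285-5424310) are the known IRE1 intron, whose removal shifts the reading frame, as 26 is no multiple of 3. Its PSI was 98.2 and 94.8 in siControl Veh and Dex and 95.1 and 99.4 in siArglu1 Veh and Dex, without a common direction for siArglu1 or Dex. This PSI counts inclusion of the unit of 43 bases, with unbalanced junction support by its code, and is not the share of IRE1-spliced mRNA, which was not measured. Exon 2 of Xbp1, of 97 coding bases and so also no multiple of 3, had a PSI of 97.9 and 98.3 in siControl Veh and Dex, and of 93.3 and 96.8 in siArglu1 Veh and Dex. Both siArglu1 libraries were below both siControl libraries, with differences of -4.6 PSI in vehicle and -1.57 in Dex. These exons are shown from the M21 transcript, with the 26 bases in capitals.
Xbp1 exon 4, GRCm38 chr11:5524239-5524384, plus strand: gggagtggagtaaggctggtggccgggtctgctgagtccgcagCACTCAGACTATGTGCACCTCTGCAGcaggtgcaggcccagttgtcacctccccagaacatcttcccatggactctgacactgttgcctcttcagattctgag
Xbp1 exon 2, GRCm38 chr11:5521923-5522019, plus strand: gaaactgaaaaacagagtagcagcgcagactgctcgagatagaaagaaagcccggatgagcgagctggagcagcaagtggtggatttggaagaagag

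**Figure D5:**
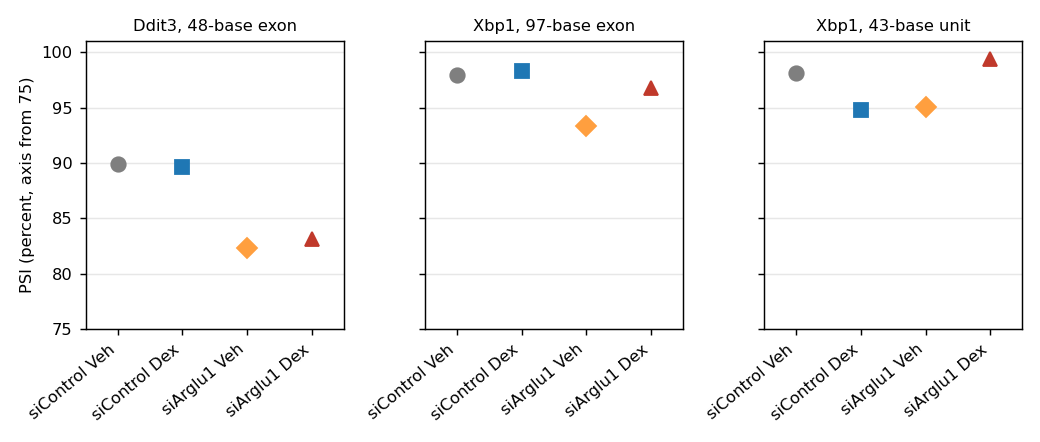
PSI in the 4 libraries of the 48-base exon of Ddit3 and of the 97-base exon and the 43-base unit of Xbp1, on an axis that starts at 75. The siArglu1 libraries lie below the siControl libraries for both exons (82.3 and 83.1 against 89.9 and 89.7 for Ddit3), and not for the 43-base unit.

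The other genes were spliced nearly alike in the 4 libraries. The cassette exons of Hspa5, Asns and Herpud1 were either included at a PSI of 98.9 or more or, for an Asns exon of 175 bases, at 0.16 or less. A pair of 3′ splice sites set 3 bases apart in Herpud1 had a PSI of 93.17 and 95.02 at the second site in siControl Veh and Dex, and of 95.65 and 93.43 in siArglu1 Veh and Dex, on 299 to 663 junction reads. Herpud1 thus differed in level with little difference in the events listed. In Asns, 1 event of alternative 5′ sites with 15 to 25 junction reads was too thinly covered to be compared, and its last site had a PSI of 80.0 and 70.8 in siControl Veh and Dex and of 52.7 and 68.0 in siArglu1 Veh and Dex.

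In the other genes of the lists, 769 events in 121 genes were compared. For knockdown 9 (1.17%) differed by 15 PSI in vehicle and 4 (0.52%) in Dex, beside 1.96% and 1.52% of all events. For Dex 5 (0.65%) did in either cell state, beside 0.717% in siControl and 0.948% in siArglu1. Several of the 9 lay in Edem3, some of them with a coverage score of LOW or less in a library. Named here after their values were seen are the events with a difference of at least 15 PSI in both knockdown pairs. A 249-base exon of Cars, the cysteinyl-tRNA synthetase, had a PSI of 55.6 and 55.3 in siControl Veh and Dex and of 35.4 and 35.8 in siArglu1 Veh and Dex. A 676-base exon of Mbtps2, which encodes the protease that releases ATF6 from the membrane, had 15.9 and 14.7 in siControl and 31.9 and 30.7 in siArglu1. In both events the vehicle and Dex libraries of an siRNA lay within 2 PSI of each other.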

How the data were processed

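The 10 genes were taken by symbol from the gene table. They and the gene lists were chosen with earlier results of these data known. The authors deposited raw read counts for each gene in each library and their RPKM corrected for mappability (cRPKM). Bowtie and the mm9 build are named in the submitters' processing notes. The deposited splicing values are a percent (PSI) per library, with a coverage score in words. A pair of columns with the authors' own Dex to vehicle ratios was not used.

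Library sizes were corrected by TMM (edgeR 4.0.16 in R 4.3.3), and log2 CPM had a prior count of 1. A log2 ratio had to reach 0.81 for knockdown and 1 for Dex. Exact 95% intervals (Poisson for reads, conditional Clopper-Pearson for ratios) cover counting error only. Intervals of the difference between Dex and vehicle pairs are large-sample ones from the sum of the reciprocal reads. They too cover counting error only. The additive edgeR quasi-likelihood fit used Benjamini-Hochberg adjustment at 0.05. The trend on mappable length was taken out by lowess (span 0.3, 3 iterations). A splicing event was compared if each of the 4 libraries had a PSI and 3 or more had a score of LOW, OK or SOK. Several sites of an event counted as 1. Genes named from a list are the 2 highest and 2 lowest by mean knockdown ratio among those with a mean cRPKM of 1 or more. Exons were matched to GENCODE M21 (GRCm38) by the length of exon and introns, not by coordinates. The sources used here do not say whether counting used strand. Alternatives were DESeq2 (version 1.42.0) size factors, total reads, cRPKM with a pseudocount of 0.1, no minimum, and other prior counts, thresholds and coverage minimums. Of the neuronal markers, 1 is not reported here. Scripts were tested on simulated data.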

Additional observations from a re-analysis of the deposited data

Results flagged for a closer look

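For 2 of the 10 genes, the ratio of Dex to vehicle pointed in opposite directions in siControl and in siArglu1 cells, with both counting intervals clear of 0. Over all genes tested, the interval was clear of 0 for 27.4% in siControl and for 52.8% in siArglu1. The share of all genes with opposite directions was not counted, so the count of 2 is not a result about these genes. Asns had a log2 ratio of 0.0605 in siControl and -0.145 in siArglu1. For Hspa5 the log2 ratios were 0.0545 and -0.0655. The difference between the cell states was not tested, because each ratio rests on 1 library per group. All of these ratios lie far inside the size threshold of 1. In the siArglu1 pair, the ratios of all genes rose with mappable length (Spearman rho 0.54 across genes), and with that trend removed the values there were -0.08 for Asns and -0.05 for Hspa5. The part of the length trend in these values was not tested further.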

How the results depend on the processing

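Counts of genes past the size threshold were 0 in all 4 comparisons. At a threshold of 0.5, the count was 2 for knockdown in vehicle (Atf4 and Herpud1) and 1 for knockdown in Dex (Herpud1). With the length trend removed it was 1 in each (Herpud1). The other alternatives left the counts at 0. The additive edgeR model rests on 1 residual degree of freedom and leaves the length trend in. It called 5 of the 10 genes for knockdown, against 0 by size, and 0 for Dex. Without a coverage minimum, 1 splicing event (in Asns) passed 15 PSI for knockdown in vehicle, and 1 (the same event) for Dex in siArglu1. No member event passed at 10 or 25 PSI, or where every library had to score OK or SOK. Of the 40 ratios of single genes, 8 changed sign with the length trend removed. These were Trib3, Chac1 and Atf5 for knockdown in vehicle, Atf5 for knockdown in Dex, and Chac1, Xbp1, Herpud1 and Ppp1r15a for Dex in siArglu1. With total reads, 1 changed sign (Xbp1, Dex in siArglu1, from -0.03 to 0.00022), and with cRPKM that ratio was 0. No ratio changed sign with DESeq2 size factors, without a minimum or with other prior counts. Depth was not the limit for these genes, which had at least 3317 reads in each library, but the spread between cultures was not measured.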
